A study of Mus musculus with 2 samples.

Results

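T cell receptor variable (V) genes were followed in 2 single-cell libraries of mouse pancreas. The members are all genes of the feature table whose symbol starts with Trav or Trbv. There were 163 of them among 31053 genes, 128 Trav genes of the alpha chain and 35 Trbv genes of the beta chain. GENCODE M21 (build GRCm38) places every Trav gene on chromosome 14 and every Trbv gene on chromosome 6, and annotates 130 of the 163 as genes and 33 as pseudogenes. A unique molecular identifier (UMI), the tag that marks 1 captured transcript, was counted for 73 of the 163, for 36 in the EYFP positive and for 72 in the EYFP negative library. The other 90 members held none in either library.

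The mice carried R26[CA]30EYFP, a fluorescent reporter allele, on a C57Bl/6J background, and the pancreas was taken after pancreatitis. Cells were sorted as EYFP positive or EYFP negative, and each sort made 1 library, so both groups share genotype, strain and pancreatitis. The treatment field reads None for both. How many animals each library came from, how old they were and how long after pancreatitis they were taken is not given. A group of 1 library allows no test between groups, and every interval below is a 95% interval that covers counting error only.

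A developing T cell cuts and joins 1 V gene of each chain to a joining segment, for the beta chain with a diversity segment between them, and splices the result to a constant region. The encoded alpha and beta chains form the receptor that reads peptides on major histocompatibility molecules, and they signal through the CD3 proteins. Allelic exclusion keeps most cells to a single beta chain, whereas a second rearranged alpha chain is less rare. Natural killer (NK) cells and B cells rearrange neither locus, although NK cells can transcribe unrearranged constant regions.

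Near its end the V exon holds the codon of a conserved cysteine, and the join to the next segment, a few codons on, helps to make the part of the receptor that differs most between cells. The last 60 bases of this exon are shown for the V genes found in the most T-like barcodes, 5′ to 3′ on the coding strand, so that a reader can see what a gene name stands for. They were read from the GENCODE M21 annotation, and capitals run from the last in-frame cysteine codon to the exon's end.
Trbv2, chr6:41047936-41047995, plus strand: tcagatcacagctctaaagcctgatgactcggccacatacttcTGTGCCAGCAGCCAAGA
Trbv12-2, chr6:41119305-41119364, plus strand: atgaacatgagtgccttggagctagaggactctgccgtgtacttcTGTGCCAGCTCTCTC
Trbv3, chr6:41048769-41048828, plus strand: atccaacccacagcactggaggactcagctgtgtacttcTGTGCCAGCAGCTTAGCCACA
Trbv19, chr6:41178989-41179048, plus strand: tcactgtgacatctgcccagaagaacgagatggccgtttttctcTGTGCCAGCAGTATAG
Trav3-3, chr14:53666447-53666506, plus strand: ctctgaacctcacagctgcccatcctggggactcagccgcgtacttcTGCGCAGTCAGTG
Trav14d-3-dv8, chr14:53078986-53079045, plus strand: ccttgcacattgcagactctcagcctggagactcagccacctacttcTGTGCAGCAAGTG
Trav14-2, chr14:53641166-53641225, plus strand: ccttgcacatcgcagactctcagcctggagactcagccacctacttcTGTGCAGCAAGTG
Trav16, chr14:53743646-53743705, plus strand: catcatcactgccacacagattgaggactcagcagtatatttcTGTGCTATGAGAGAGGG

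Totals were 4006807 UMIs in 1717 EYFP positive barcodes and 5295816 UMIs in 745 EYFP negative barcodes. A filter at 200 genes and 20% mitochondrial UMIs kept 860 and 553 barcodes, with a median of 1008 and 8020 UMIs. The kept barcodes were clustered without any receptor gene, so that V genes took no part in naming the classes. The T-like class had 222 EYFP positive barcodes (median 1270 UMIs), all in clusters 3 and 4, and 371 EYFP negative barcodes (median 8396 UMIs). Of the 371, clusters 14, 15 and 16 held 61, 182 and 120, cluster 3 held 7 and cluster 4 held 1. In each of these 5 clusters 14 of 14 T cell markers were raised. Cluster 4 stood apart by its depth, with 147 EYFP positive barcodes at a median of 787 UMIs. The libraries shared 4 barcode sequences, none T-like and with 0 V UMIs.

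Nearly all V transcripts lay in T-like barcodes. Of 99 V UMIs in kept EYFP positive barcodes 93 were there, and of 412 in kept EYFP negative barcodes 383. In counts per 1e6 UMIs of the class (CPM) the T-like level was 120 (97.1 to 147) in the EYFP positive and 119 (108 to 132) in the EYFP negative library, with overlapping intervals. The sum joins loci that lay on opposite sides. The Trav level was 56.9 CPM (41.3 to 76.4) in the EYFP positive and 73.8 CPM (64.7 to 83.8) in the EYFP negative library, and the Trbv level 63.4 (46.9 to 83.8) and 45.4 (38.4 to 53.4). The ratio of EYFP positive over EYFP negative was 0.771 (0.546 to 1.07) for Trav and 1.39 (0.988 to 1.94) for Trbv, and both intervals held 1. Over a total that omits acinar secretory, mitochondrial and ribosomal UMIs, the levels were 180 and 197 CPM, again with overlapping intervals. The share of T-like barcodes with any V UMI did differ, at 49 of 222 (22.1%, 16.8 to 28.1) against 191 of 371 (51.5%, 46.3 to 56.7). Depth differed with it. Without cluster 4 the EYFP positive share was 38 of 75 (50.7%, 38.9 to 62.4).

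**Figure D1:**
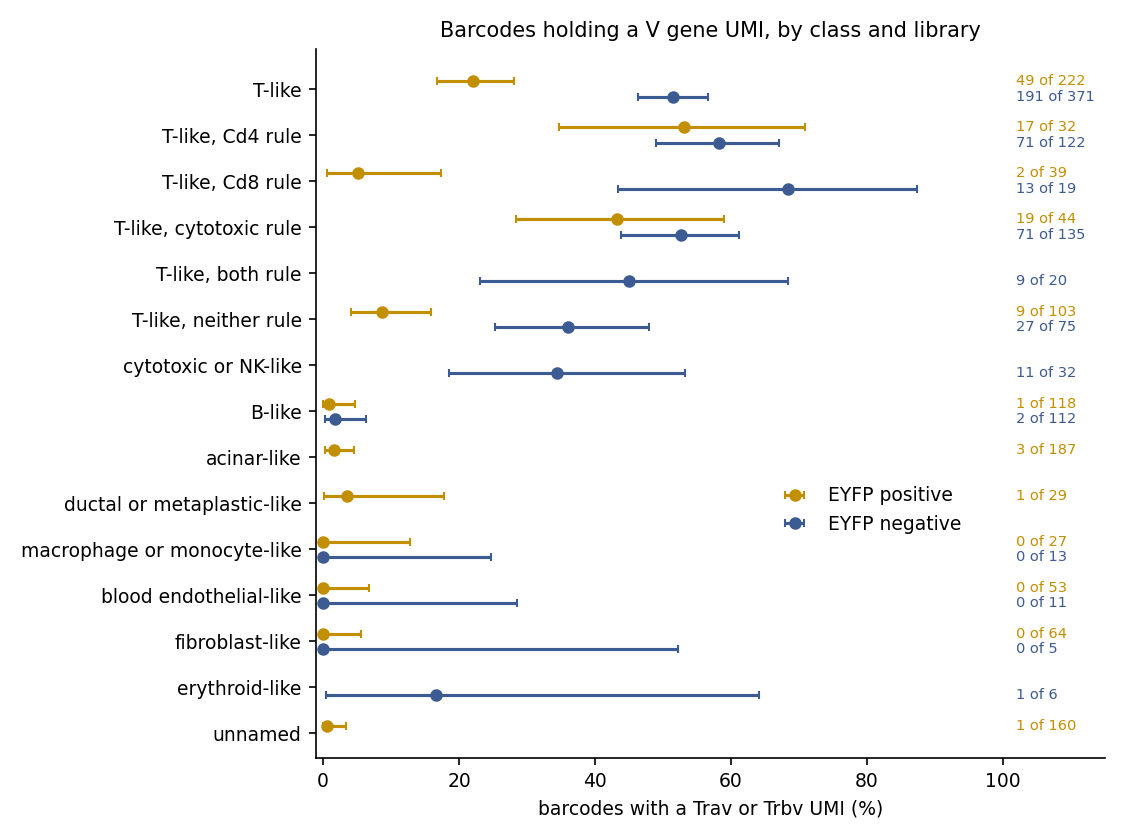
Share of barcodes with a Trav or Trbv UMI (x axis, percent) for each class and T-like subset (y axis) in both libraries, with exact 95% intervals and the counts at the right. Classes of under 5 barcodes are left out. T-like subsets of the EYFP negative library lie between 36.0% and 68.4%, and the B-like class at 1.79%.

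Within bands of depth the libraries' shares had overlapping intervals. Among T-like barcodes of 5000 to under 10000 UMIs, 31 of 55 EYFP positive barcodes held a V UMI (56.4%, 42.3 to 69.7), and 129 of 229 EYFP negative ones did (56.3%, 49.6 to 62.9). At 10000 or more UMIs the shares were 6 of 12 and 50 of 104. From 2000 to under 5000 UMIs they were 4 of 17 (23.5%, 6.81 to 49.9) and 11 of 31 (35.5%, 19.2 to 54.6), and from 1000 to under 2000 UMIs 7 of 40 (17.5%, 7.34 to 32.8) and 1 of 4 (25%, 0.631 to 80.6). Below 1000 UMIs 1 of 98 EYFP positive barcodes held one, and 0 of 3 EYFP negative ones did. The V level of the 98 was 14.4 CPM (0.365 to 80.4), below the 97.1 to 147 interval of their class. Thinned to 1000 UMIs each, the shares were 13 of 124 (10.5%, 5.70 to 17.3) and 37 of 368 (10.1%, 7.18 to 13.6), with 98 and 3 shallower T-like barcodes left out. At equal depth among barcodes of 1000 UMIs or more, the difference between the libraries was thus not detectable. Thinned to 500 UMIs, which leaves out no T-like barcode, the EYFP positive share was 12 of 222 (5.41%, 2.82 to 9.25). The EYFP negative one was 29 of 371 (7.82%, 5.30 to 11.0), with overlapping intervals. Averaged over all T-like barcodes, the unthinned V level per barcode was 83.8 CPM in EYFP positive and 127 CPM in EYFP negative. Why the shallowest barcodes held so few V UMIs was not tested.

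**Figure D2:**
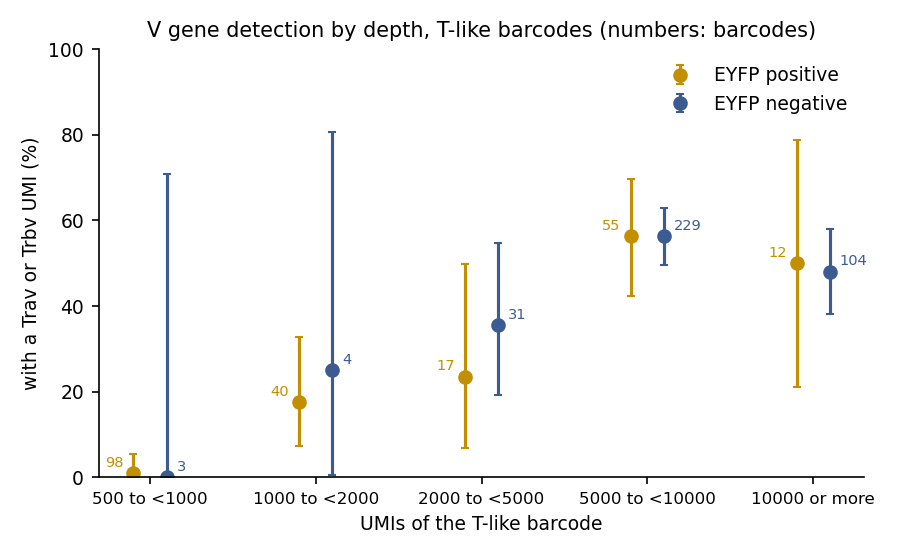
Share of T-like barcodes with a V UMI (y axis, percent) in bands of UMIs per barcode (x axis) for both libraries, with exact 95% intervals and the number of barcodes beside each point. From 5000 UMIs on the points of the libraries lie at 56.4% and 56.3% and then at 50% and 48.1%.

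The constant regions were far better covered than the V genes. T-like barcodes held 349 Trac UMIs (alpha constant region) in the EYFP positive and 2173 in the EYFP negative library, against 44 and 237 Trav UMIs. For the beta chain there were 1690 and 9023 Trbc1 and Trbc2 UMIs, against 49 and 146 Trbv UMIs. Alpha transcripts therefore showed 12.6 (9.0 to 17.3) and 10.9 (9.50 to 12.5) V UMIs per 100 constant UMIs, and beta transcripts 2.90 (2.14 to 3.85) and 1.62 (1.36 to 1.91), not corrected for length. The ratio was higher for the alpha than for the beta chain in both libraries. A constant UMI was seen in 165 of 222 and in 368 of 371 T-like barcodes. None of the 74 Traj and Trbj genes, the joining segments, had a UMI in either library. The labels name a 5′ kit. Which transcript end was read was not tested here.

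The beta ratio is given here for the EYFP negative T-like clusters, a comparison that was not planned. Cluster 14, in which 9 of 9 Cd4 T and 9 of 11 cytotoxic or NK markers were raised, had 2.47 Trbv UMIs per 100 Trbc UMIs (1.76 to 3.37). Cluster 16, whose leading genes are Cd8b1 and Cd8a, had 1.11 (0.779 to 1.55), and cluster 15 lay between them at 1.63 (1.26 to 2.07). The intervals of clusters 14 and 16 did not overlap, but they treat each UMI as independent. UMIs of 1 barcode can be copies of 1 rearranged gene, so these intervals are too narrow and no difference is read from them. For the alpha chain the same clusters lay at 9.02 (6.23 to 12.7), 11.0 (8.59 to 14.0) and 11.2 (9.15 to 13.5) Trav UMIs per 100 Trac UMIs, and their intervals overlapped.

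T-like barcodes were split by UMIs of Cd4, of Cd8a and Cd8b1, and of 8 cytotoxic genes such as Nkg7 and Gzmb, with at least 2 of these genes and 3 UMIs putting a barcode in the cytotoxic subset first. In the EYFP negative library this gave 122 Cd4, 19 Cd8 and 135 cytotoxic barcodes, 20 with both coreceptors and 75 with neither. The cytotoxic subset mostly held Cd8 transcripts, since 117 of its 135 barcodes held a Cd8a or Cd8b1 UMI. The limit runs close to many barcodes, with 10 at 3 cytotoxic UMIs and 24 just under it.

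In the EYFP negative library the order of the subsets turned on how they were drawn. By the UMI rule V transcripts made up 136 CPM (114 to 161) in Cd4, 143 CPM (89.9 to 217) in Cd8 and 107 CPM (90.8 to 126) in cytotoxic barcodes, and the intervals overlapped. The share with a V UMI was 71 of 122 (58.2%, 48.9 to 67.1), 13 of 19 (68.4%, 43.4 to 87.4) and 71 of 135 (52.6%, 43.8 to 61.2). Subsets taken from cluster names gave 139 CPM (123 to 156) for Cd4, 88.9 (73.2 to 107) for Cd8 and 69.6 (44.6 to 104) for the cytotoxic or NK-like cluster. These are not the rule's sets under other names. The cluster-named Cd8 set held 121 barcodes, against 19 by the rule. The cytotoxic or NK-like cluster lies outside the T-like class and includes barcodes without CD3 or V transcripts, so its value is not a cytotoxic T cell level. The cluster-named Cd4 interval lay above the other 2. The CPM intervals of these subsets, thinned or not, treat each UMI as independent. They are therefore too narrow, and no difference is read from them. Depth differed too, at medians of 7518 and 7830 UMIs in clusters 14 and 15 and 9946 and 11206 in clusters 16 and 17. T-like V CPM was 225 at 2000 to under 5000 UMIs, 127 at 5000 to under 10000 and 99.6 at 10000 or more. The part of depth in the order was not tested. With each barcode thinned to 2000 UMIs the rule's subsets lay at 198 CPM (146 to 263) for Cd4, 184 (74.1 to 380) for Cd8 and 88.9 (57.0 to 132) for cytotoxic barcodes. The Cd4 and cytotoxic intervals did not overlap in this 1 draw. At 1000 UMIs the values were 156 CPM (93.8 to 243) for Cd4 and 133 CPM (79.0 to 211) for cytotoxic barcodes. Those intervals overlapped, as did the ones at 500 UMIs. Unthinned, the barcodes used at 2000 UMIs had a mean of 140 CPM in Cd4 and 116 CPM in cytotoxic.

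In the EYFP positive library the V CPM of the subsets lay further apart, with intervals that are too narrow for the same reason. Cd4 barcodes held 42 V UMIs (233 CPM, 168 to 316) in 17 of 32 barcodes, cytotoxic ones 27 (97.1 CPM, 64.0 to 141) in 19 of 44, and Cd8 ones 2 (28 CPM, 3.39 to 101) in 2 of 39. Median depth moved with this, at 6701, 7973 and 1260 UMIs. Of the 103 barcodes with neither coreceptor, at a median of 776 UMIs, 9 held a V UMI. Thinned to 1000 UMIs, the share with a V UMI was 7 of 30 in Cd4 (23.3%, 9.93 to 42.3), 2 of 22 in Cd8 (9.09%, 1.12 to 29.2) and 2 of 34 in cytotoxic barcodes (5.88%, 0.720 to 19.7). At 500 UMIs it was 2 of 32, 1 of 39 and 6 of 44, and at 2000 UMIs 7 of 23, 0 of 8 and 6 of 31. Cd8 was the lowest at 500 and 2000 UMIs and not at 1000. Each depth is 1 draw with few positive barcodes, and the intervals overlapped at every depth.

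V UMIs of 1 T-like barcode shared a gene more often than UMIs of different barcodes, yet many barcodes held more than 1 gene of a locus. Where a barcode held 2 or more Trbv UMIs, 70 of 94 pairs of such UMIs (74.5%) came from the same gene, against 1491 of 18821 pairs (7.92%) taken from different barcodes. For Trav it was 205 of 303 pairs (67.7%) within and 1449 of 39037 (3.71%) between barcodes. The 94 and 303 pairs come from 41 and 62 barcodes, and barcodes with many UMIs weigh most. Counted by barcode, 18 of 30 EYFP negative barcodes with 2 or more Trbv UMIs held a single Trbv gene (60%, 40.6 to 77.3), and 31 of 52 with 2 or more Trav UMIs a single Trav gene (59.6%, 45.1 to 73.0). In the EYFP positive library it was 8 of 11 for Trbv (72.7%, 39.0 to 94.0) and 5 of 10 for Trav (50%, 18.7 to 81.3).

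**Figure D3:**
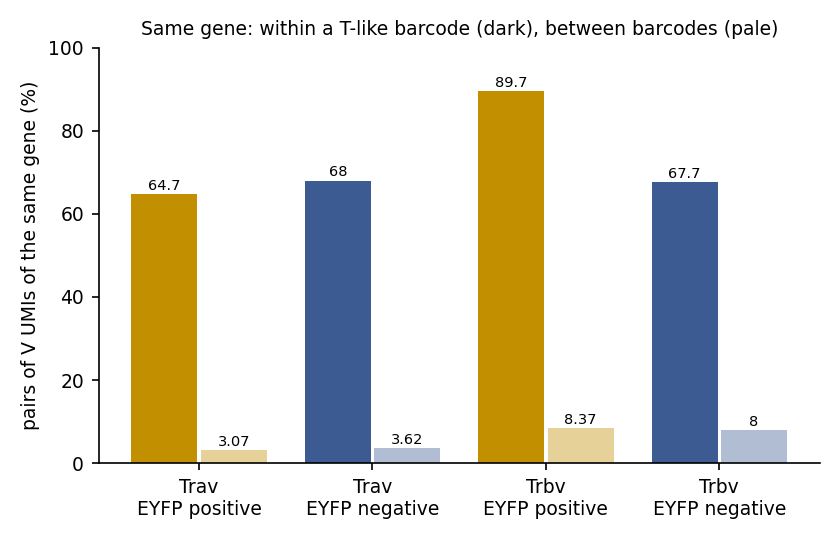
Percent of pairs of V UMIs that are of the same gene (y axis), for pairs within a T-like barcode (dark bars) and between T-like barcodes of a library (pale bars), by locus and library (x axis). Within-barcode pairs lie between 64.7% and 89.7%, and between-barcode pairs between 3.07% and 8.37%.

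Among EYFP negative T-like barcodes 270 held no Trbv gene, 89 held 1 and 12 held 2, so that 12 of 101 Trbv-holding barcodes (11.9%, 6.29 to 19.8) had more than 1. For Trav, 240 held none, 110 held 1, 20 held 2 and 1 held 3, which makes 21 of 131 (16.0%, 10.2 to 23.5). The EYFP positive library had 3 of 32 (9.38%, 1.98 to 25.0) for Trbv and 5 of 25 (20%, 6.83 to 40.7) for Trav. These shares are low by construction, since a barcode with 1 UMI of a locus cannot show more than 1 gene. Among barcodes with 2 or more UMIs of the locus, more than 1 gene was seen in 12 of 30 (40%, 22.7 to 59.4) for EYFP negative Trbv, 21 of 52 (40.4%, 27.0 to 54.9) for EYFP negative Trav, 3 of 11 (27.3%, 6.02 to 61.0) for EYFP positive Trbv and 5 of 10 for EYFP positive Trav. The alpha and beta shares had overlapping intervals in both libraries. Many Trav genes have close copies in the locus. How well reads of such copies can be told apart was not tested, so no second alpha chain is read from these counts. Counting only genes with at least 2 UMIs, 1 of 24 EYFP negative barcodes had 2 Trbv genes and 1 of 42 had more than 1 Trav gene. In the EYFP positive library it was 0 of 8 and 1 of 8. This rule too lowers the shares by construction, since 2 such genes need more UMIs than the 1 gene that counts a barcode.

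Of the 15 barcodes with 2 Trbv genes 1 held 2 UMIs of each, Trbv12-2 and Trbv29, with 11479 UMIs in all, 21 Trbc1 UMIs and 23 Trbc2 UMIs. In the others at least 1 of the genes rested on 1 UMI. The median depth of barcodes with 2 Trbv genes in the EYFP negative library was 8905 UMIs, against 8543 in barcodes with 1 Trbv gene. The doublet caller marked none of the 15. It marked only 2 EYFP positive and 5 EYFP negative barcodes in all, so this cannot decide whether the 15 hold 1 cell each. Trbc1 and Trbc2, the alternative beta constant regions, were both seen in 235 of 371 EYFP negative T-like barcodes. Only Trbc2 was seen in 128 and only Trbc1 in 4. How well reads of these genes can be told apart was not tested, so no second beta chain is read from these counts.

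A Trav and a Trbv UMI together were seen in 8 EYFP positive and 41 EYFP negative T-like barcodes. With exactly 1 gene of each chain there were 6 and 31 barcodes. The 6 had 6 different gene pairs and the 31 had 28, with 3 pairs in 2 barcodes each, namely Trav3-3 with Trbv12-2, Trav4-3 with Trbv12-2 and Trav7-5 with Trbv3. A shared pair of V genes is not a shared receptor, since the joining segments and the junction were not seen.

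V genes differed widely in how many T-like barcodes held them. Over both libraries Trbv2 was seen in 21 T-like barcodes, Trbv12-2 in 18, Trbv3 in 16, Trbv19 in 12, and Trbv13-2 and Trbv20 in 11 each. Trbv13-1 and Trbv15 followed with 8 each, Trbv1 and Trbv31 with 5, and Trbv13-3, Trbv14, Trbv16 and others with 4 or fewer. Of the alpha genes Trav3-3 was seen in 17, Trav14d-3-dv8 in 14, and Trav14-2 and Trav16 in 12 each. Trav13-1, Trav14n-3 and Trav6-7-dv9 reached 7, Trav14-3, Trav16n and Trav5-4 reached 6, and Trav10 and Trav15-1-dv6-1 reached 5. These are counts of barcodes, not corrected for gene length or for how well a gene can be told from its copies.

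**Figure D4:**
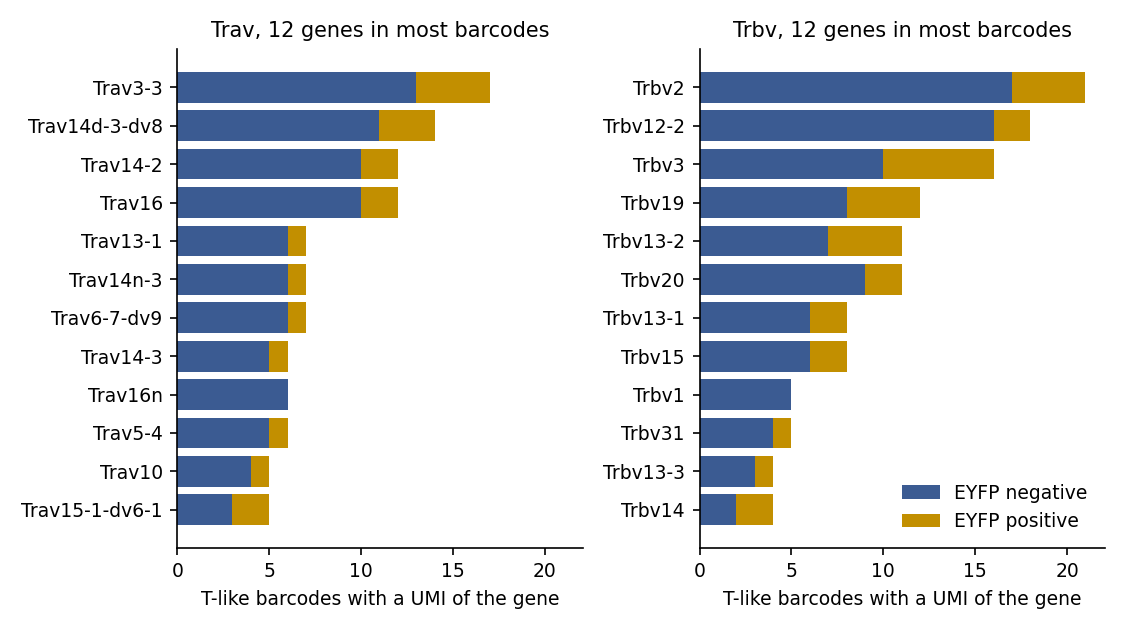
Number of T-like barcodes with a UMI (x axis) for the 12 Trav and the 12 Trbv genes seen in the most barcodes (y axis), stacked by library. Trbv2 reaches 21 and Trav3-3 reaches 17 barcodes over both libraries.

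Among EYFP negative Cd4 barcodes Trbv2 led with 6, then Trbv1 and Trbv12-2 with 5 each, and of the alpha genes Trav14-2 and Trav14d-3-dv8 with 5 each and Trav3-3 with 4. Cytotoxic barcodes most often held Trbv2 (8), Trbv12-2 (7), and Trbv29 and Trbv3 (4 each), with Trav13-1 and Trav16 at 6 and Trav3-3 at 4. In the 19 Cd8 barcodes Trbv13-2 and Trav3-3 were each seen in 2 and other V genes in at most 1. All 5 T-like barcodes with Trbv1 were in the Cd4 subset and all 6 EYFP negative ones with Trav13-1 in the cytotoxic subset. Both genes were singled out after their values were seen, and no test was made.

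No difference between the libraries in the use of a single V gene was detectable at this depth. For 10 genes seen in at least 10 T-like barcodes, the share among barcodes with any V UMI of the same locus was compared, and all 10 intervals of the ratio held 1. The largest ratios of EYFP positive over EYFP negative were 1.89 (0.566 to 5.75) for Trbv3, 1.80 (0.387 to 7.09) for Trbv13-2 and 1.61 (0.383 to 5.22) for Trav3-3. Trbv19 and Trav14d-3-dv8 had 1.58 (0.348 to 5.89) and 1.43 (0.256 to 5.41). Trav14-2 and Trav16 both had 1.05 (0.112 to 4.92). The smallest were 0.395 (0.0440 to 1.68) for Trbv12-2, 0.701 (0.0737 to 3.39) for Trbv20 and 0.743 (0.182 to 2.28) for Trbv2.

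UMIs and barcodes gave different pictures of the same gene. Trbv19 had 12 UMIs in the EYFP positive and 9 in the EYFP negative T-like barcodes, a ratio of 5.54 (2.14 to 14.9) on CPM, yet it was seen in 4 and 8 barcodes and 6 of the 12 UMIs came from 1 barcode. Trav4-4-dv10 had 14 EYFP negative T-like UMIs in 2 barcodes, 9 of them in 1. Trav13-4-dv7 had 13 in 4 barcodes and 0 in the EYFP positive library. Of the 14 V genes with at least 10 T-like UMIs 4 were at least 2-fold higher in the EYFP positive library, beside 5.8% of all 9952 genes with as many UMIs, and 3 were at least 2-fold lower, beside 7.06%. Their median log2 fold was -0.29 and that of all genes -0.07. V UMIs come in clumps from few barcodes, so these counts are given as a description, with nothing read from them.

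The alpha and beta constant genes were lower in the EYFP positive T-like class by less than 2-fold. Pooled CPM weigh deep barcodes most, and their intervals treat each UMI as independent. With every T-like barcode thinned to 500 UMIs, Trac, Trbc1 and Trbc2 together lay at 1910 CPM in EYFP positive and 3698 in EYFP negative. At 2000 UMIs, with 138 and 7 shallower barcodes left out, they lay at 2893 and 3560. On pooled CPM the EYFP positive over EYFP negative ratio was 0.667 (0.594 to 0.748) for Trac, 0.695 (0.634 to 0.761) for Trbc1 and 0.826 (0.774 to 0.880) for Trbc2. None of the 7 constant genes with at least 10 UMIs passed 2-fold, and neither did the 4 CD3 genes or the 12 genes of proximal signalling. Cd3d, Cd3e, Cd3g and Cd247 had ratios from 0.665 to 0.902. Ptprc, the CD45 phosphatase, lay at 0.997 (0.928 to 1.07) and Zap70, the kinase that binds phosphorylated CD3 chains, at 0.542 (0.378 to 0.758). The median log2 fold was -0.52 for the constant, -0.26 for the CD3 and -0.20 for the signalling genes, beside -0.07 for all genes. CD3 and signalling genes helped to name the class, so their levels against other classes are no finding. Rag1 and Rag2, the recombinase genes, held 0 UMIs in T-like barcodes of both libraries, and Dntt, which adds bases at the junctions, 2 and 16. The delta constant gene Trdc had 15 and 82 UMIs, and the gamma constant genes Tcrg-C1, Tcrg-C2 and Tcrg-C4 had 5 and 40, 4 and 23, and 3 and 23. The 13 delta and gamma V genes held 6 and 45 UMIs, of which Trdv4 had 0 and 16 and Trgv2 had 5 and 15. Of 3 genes of innate-like and 5 of regulatory T cells with at least 10 UMIs 0 passed 2-fold, with median log2 folds of -0.24 and -0.16. Foxp3, which marks regulatory T cells, was seen in 5 and 19 T-like barcodes, of which 3 and 9 held a V UMI.

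V UMIs in non-T barcodes were few, and 6 of the 8 barcodes that held one also held CD3 transcripts. The non-T count leaves out unnamed and cytotoxic or NK-like barcodes. Non-T barcodes held a V UMI in 5 of 478 cases (1.05%, 0.340 to 2.42) in the EYFP positive and in 3 of 150 (2.00%, 0.414 to 5.73) in the EYFP negative library, at median depths of 1201 and 5983 UMIs. Without a Cd3d, Cd3e or Cd3g UMI it was 2 of 420 (0.476%) and 0 of 140, which allows a share of up to 2.14%. No V gene had 3 or more UMIs in a non-T barcode. Of the 160 unnamed EYFP positive barcodes 1 held a V UMI, of Trbv2, in cluster 8 with 743 UMIs, 1 CD3 UMI and 0 constant UMIs.

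Both EYFP negative B-like barcodes with a V UMI carried markers of both lymphocyte lineages. One had Trav14n-3 with 46 CD3 and 19 Cd79a and Cd79b UMIs, and the other 2 UMIs of Trav4-4-dv10 with 26 CD3 and 31 Cd79 UMIs. An erythroid-like barcode held 2 UMIs of Trav9-2 beside 22 CD3 and 14 Cd8 UMIs. The doublet caller marked none of the 3.

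In the EYFP positive library 3 of the 5 V UMIs in non-T barcodes lay in acinar-like cluster 0, with Trav13-1 in 2 barcodes and Trbv13-3 in 1. That cluster of 104 barcodes at a median of 736 UMIs had 10 of 14 T cell markers raised beside its acinar genes, CD3 UMIs in 31 barcodes and a constant UMI in 25. The other 2 were 1 UMI of Trav9-1 in a B-like and 1 of Trav14d-3-dv8 in a ductal or metaplastic-like barcode of 30619 UMIs. Endothelial-like, fibroblast-like and macrophage or monocyte-like barcodes held 0 V UMIs in both libraries.

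The cytotoxic or NK-like cluster 17, 32 EYFP negative barcodes led by Ccl5, Nkg7, Klrd1 and Tyrobp, divided by CD3. Its 21 barcodes with a CD3 UMI held 24 V UMIs in 11 barcodes (52.4%, 29.8 to 74.3), beside a T-like share of 51.5%. Its 11 barcodes without one held 0 V UMIs, which allows up to 27.3% of barcodes, although all 11 had a constant UMI and together 93 of Trbc1 and Trbc2 against 2 of Trac. The V genes there included 5 UMIs of Trav7-4 in 1 barcode and 4 of Trav12-2 in another.

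Barcodes with at least 2 UMIs of Trdc, the delta constant region, were 2 in the EYFP positive and 10 in the EYFP negative T-like and cytotoxic or NK-like classes. The 2 held 8 Trdc UMIs, 2 UMIs of delta and gamma V genes, 5 Trav UMIs, 2 of them of dv genes, and 0 Trbv UMIs, beside 7 Trac and 34 Trbc UMIs, and 1 of the 2 held a V UMI. The 10 held 108 Trdc UMIs, 31 UMIs of delta and gamma V genes, 3 Trav and 1 Trbv UMI, beside 21 Trac and 157 Trbc UMIs. Of the 10, 4 were cytotoxic or NK-like and 2 held a V UMI. All 3 Trav UMIs were of Trav15-1-dv6-1 in 1 barcode with 10 Trdc UMIs. The letters dv in a Trav symbol mark genes that can also join the delta chain. Barcodes without a Trdc UMI held 60 UMIs of such dv genes among 249 Trav UMIs in the EYFP negative library.

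Many Trav genes stand in copies, because a stretch of the locus is repeated and the copies carry d or n in their symbols. UMIs are given here beside how much of each gene's sequence is its own. Of 108 Trav genes annotated as genes, 35 had no window of 60 bases that was absent from every other V gene, and 1 of the 35 had a UMI, 1 in all. Of 28 genes with under 50% such windows 18 had a UMI, 90 in all, and of 45 genes with 50% or more 29 did, 215 in all. The other 16 of the 45 held 0 UMIs. Among 8 genes whose windows are all unique, 6 held 0, namely Trav2, Trav5-1, Trav17, Trav18, Trav21-dv12 and Trav23. A gene that is not expressed and a copy whose reads cannot be assigned cannot be told apart by these counts. Windows of 30 and 90 bases gave 2 of 36 and 1 of 34 genes with a UMI where no window was unique. By place, the 39 d copies held 39 UMIs, the 34 n copies 25, and the 47 members after the n copies 241.

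**Figure D5:**
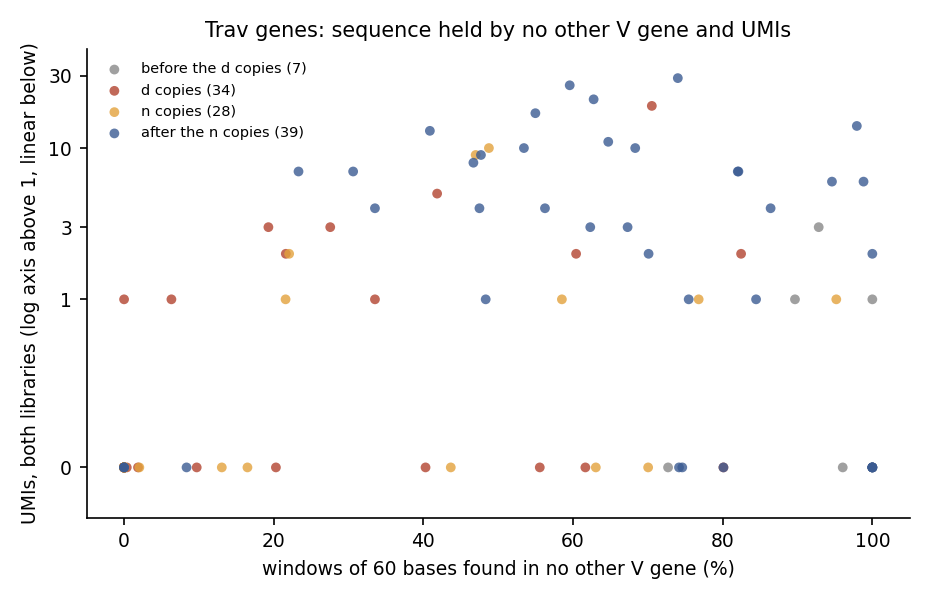
UMIs of each of 108 Trav genes in both libraries (y axis) against the percent of its 60-base windows found in no other V gene (x axis), coloured by place in the locus. The point at 0 windows and 0 UMIs stands for 34 genes that lie on each other, and genes with 10 or more UMIs lie above 40%.

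Trav11 and Trav11d, used by invariant natural killer T cells, stood at 0 UMIs in both libraries. Their V exons have the same 290 bases, shown here by Trav11d with no capitals because no base differs. The Trav11 exon is 1 base longer at its end.
Trav11d, chr14:52824623-52824912, plus strand: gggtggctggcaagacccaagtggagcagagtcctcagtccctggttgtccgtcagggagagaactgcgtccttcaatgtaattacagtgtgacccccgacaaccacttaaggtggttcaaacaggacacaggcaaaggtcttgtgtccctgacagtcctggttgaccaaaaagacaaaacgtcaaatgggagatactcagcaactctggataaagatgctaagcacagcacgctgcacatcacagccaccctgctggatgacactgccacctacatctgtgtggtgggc
Neither had a window of 60 bases of its own. Traj18, the joining segment of the same invariant chain, also had 0, as had every joining gene. Trav1, used with Traj33 by mucosal-associated invariant T cells, is unique in sequence and had 1 UMI, in an EYFP negative T-like barcode. Zbtb16, the transcription factor of innate-like T cells, was seen in 1 and 6 T-like barcodes.

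All 3 Trav14-3 copies held UMIs, and they differ from each other at a few bases. The last 240 bases of the exon are given, with capitals at bases that differ from Trav14-3.
Trav14-3, chr14:53763455-53763694, plus strand: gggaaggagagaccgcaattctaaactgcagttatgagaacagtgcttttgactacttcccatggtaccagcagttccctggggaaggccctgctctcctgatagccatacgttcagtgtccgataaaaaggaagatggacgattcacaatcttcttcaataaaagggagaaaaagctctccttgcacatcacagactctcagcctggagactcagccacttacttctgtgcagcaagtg
Trav14d-3-dv8, chr14:53078806-53079045, plus strand: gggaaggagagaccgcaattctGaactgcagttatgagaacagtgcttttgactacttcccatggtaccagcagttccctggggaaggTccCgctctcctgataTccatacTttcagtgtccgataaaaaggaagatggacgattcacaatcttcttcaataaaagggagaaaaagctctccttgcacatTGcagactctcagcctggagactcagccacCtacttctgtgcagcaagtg
Trav14n-3, chr14:53370336-53370575, plus strand: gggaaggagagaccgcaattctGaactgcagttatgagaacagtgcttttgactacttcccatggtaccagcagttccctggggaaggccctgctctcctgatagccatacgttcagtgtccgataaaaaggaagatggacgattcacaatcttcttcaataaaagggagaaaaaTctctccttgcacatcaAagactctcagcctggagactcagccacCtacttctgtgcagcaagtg
Over the whole exon of 309 bases Trav14d-3-dv8 differed from Trav14-3 at 8 and Trav14n-3 at 6 bases. The UMIs were 9 for Trav14-3, 19 for Trav14d-3-dv8 and 10 for Trav14n-3. Trav16 and its copies were also all seen, with 26 UMIs, 5 for Trav16d-dv11 and 9 for Trav16n. By contrast Trav14-2 had 21 UMIs and Trav3-3 had 29, while their d and n copies, which have no unique window of 60 bases, had 0 each. The d and n copies in those sets cannot be told apart from each other by any such window.

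No Trbv symbol carries d or n, and every window of 60 bases of each Trbv member was unique. At 30 bases some genes shared sequence, with 88.1% unique windows in Trbv13-2 and 87.5% in Trbv13-3. An EYFP positive T-like barcode with 2 Trbv genes held 1 UMI of each of these. Of 22 Trbv genes 21 had a UMI. The exception was Trbv5 (chromosome 6, 41062332 to 41062803), at 0 UMIs although all its 60-base windows were unique. The 13 Trbv pseudogenes held 2 UMIs, both of Trbv24, and the 20 Trav pseudogenes 4. Together the 33 pseudogenes made up 6 of 519 V UMIs, and the 10 members with the most UMIs made up 231 (44.5%).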

How the data were processed

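The deposited values are raw UMI counts, whole numbers for each gene in each barcode. Cell Ranger 2.1.0 and GRCh38 are named per the submitters' processing notes, whereas the gene identifiers are mouse and the software version is 3.1.0 per the file headers. The mapping build is therefore not taken as known, and coordinates and sequences are those of GENCODE M21 (GRCm38) for the same identifiers. Members and lists were chosen with earlier results of these data known.

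Barcodes under 200 genes or above 20% mitochondrial UMIs were left out, and the rest clustered together in scanpy 1.11.5 (Python 3.11.15) with all receptor V, D, J and constant genes left out: 10000 counts per cell, log1p, 2000 variable genes, 30 components, 15 neighbours, Leiden resolution 1.0. The rule that names clusters from listed markers (at least 3 at 2-fold and 5 UMIs) was written with the clusters in view and changed after, the last change naming cluster 17 cytotoxic or NK-like. 160 EYFP positive barcodes stayed unnamed. Doublets were kept, with 2 and 5 marked by Scrublet.

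CPM are a class's summed UMIs in a library over that class's total. Shares have exact Clopper-Pearson, CPM exact Poisson and ratios exact conditional binomial 95% intervals. For a count of 0 the limit is 3 counts of the total. Log2 folds used a pseudocount of 0.5 UMI. Thinning drew UMIs without replacement. Steps were checked on simulated data. The unique-window measure was chosen after gene length and base content had also been looked at. Genes were named by number of T-like barcodes per locus and subset, by library ratio among genes in at least 10 T-like barcodes, and by listed roles. Listed names of gamma constant genes do not match the feature table, whose Tcrg-C symbols were used.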

Additional observations from a re-analysis of the deposited data

Results flagged for a closer look

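V UMIs were also found in EYFP negative barcodes that the filter had left out, which no comparison above uses. The 192 left-out barcodes, with a median of 1008 UMIs, held 7 V UMIs in 5 barcodes. The 857 left-out EYFP positive barcodes held 1.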

How the results depend on the processing

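No paired analysis was possible because each group is 1 library, whose replicate number is only a name. The main values were recomputed under alternatives 141 times, and 93 fell within the main value's 95% interval. The ratios per V gene stayed within their main intervals in 8 of 8 cases, and 0 of 8 genes had an interval without 1 under the stricter filter. Counting genes with at least 2 UMIs left no V gene in 10 T-like barcodes, so the ratio could not be computed there.

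The EYFP positive T-like share with a V UMI moved most, from 22.1% to 41.9% under a filter at 500 genes and 10% mitochondrial UMIs, 31.2% at Leiden resolution 2.0, 31.8% with T cells taken by CD3 UMIs, and 50.7% without the low-UMI cluster 4. At least 2 UMIs of a V gene gave 6.31% and, in EYFP negative, 16.4%. Thinned to 500 and 1000 UMIs it was 5.41% and 10.5%, against 7.82% and 10.1% in EYFP negative, where 2000 UMIs gave 21.7%.

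The non-T share fell to 0.332% (EYFP positive) and 0% (EYFP negative) with classes by CD3 UMIs, to 0% in EYFP negative without CD3-holding barcodes, to 0% in EYFP positive with 2 UMIs asked for, to 0.209% in EYFP positive at 500 UMIs, and to 0% in EYFP negative at 500, 1000 and 2000 UMIs.

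The share with more than 1 Trbv gene was 0% (EYFP positive) and 4.17% (EYFP negative) with 2 UMIs asked for, 0% in both at 500 UMIs, 0% in EYFP positive at 1000 and 2000 UMIs, and 2.86% in EYFP negative at 2000. For Trav it was 2.38% in EYFP negative with 2 UMIs, 0% in both at 500 and 1000 UMIs, and 3.92% in EYFP negative at 2000.

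V CPM rose to 180 (EYFP positive), 197 (EYFP negative), 222 (Cd4), 233 (Cd8) and 184 (cytotoxic) when acinar secretory, mitochondrial and ribosomal genes left the total, which is smaller by construction. Thinning gave 156 and 137 for EYFP negative T-like barcodes at 500 and 2000 UMIs, 197 and 198 for Cd4, 0 for Cd8 at 500 and 1000, and 133 and 88.9 for cytotoxic at 1000 and 2000. Cluster names gave 88.9 for Cd8 and 69.6 for the cytotoxic or NK-like cluster, which is not T-like. Asking for a granule gene gave 128 for cytotoxic. The cause of these shifts was not tested. The granule rule, the CD3-free non-T class and the removal of cluster 4 were chosen after seeing the data. Depth limits all shares, and 519 V UMIs limit what can be said of single genes.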
